A study of Homo sapiens with 36 samples.

Results

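The nuclear-encoded subunits of the mitochondrial respiratory chain were followed in HMC3 cells, an established human microglial line, under and after treatment with PFOS (perfluorooctane sulfonate), a long-lived fluorinated surfactant. Members were taken by gene symbol from the deposited count table: the NDUFA, NDUFB, NDUFC, NDUFS and NDUFV genes, SDHA to SDHD, the UQCR genes, COX4 to COX8 and the ATP5 genes, without assembly factors, pseudogenes, readthrough loci or antisense RNAs. This gave 85 of 25344 symbols, with 37 in complex I, 4 in complex II, 9 in complex III, 19 in complex IV and 16 in complex V (ATP synthase). NDUFA4 and NDUFA4L2 were counted with complex IV, where the protein NDUFA4 is now placed. Several symbols are older names, kept here as the table spells them (ATP5I is now ATP5ME).

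RNA-seq was made in 6 groups of 3 libraries. Cells were kept for 24 h in vehicle or in PFOS at either 25 or 50 µM and were collected at once, or were given PFOS-free medium for a further 24 h (recovery) before collection. All groups grew in high-glucose medium with serum. The protocol does not describe the medium change of the vehicle recovery cells separately. The labels call the libraries of a group biological replicates and do not say whether they were separate cultures. The p-values therefore reflect only the spread of libraries within groups, which may be technical. That spread was taken over all 6 groups, except in fits of the compared groups alone. A further 18 libraries of the series, which profiled H3K27ac by CUT&Tag, were not analysed here.

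The respiratory chain passes electrons from NADH (complex I) and succinate (complex II) through complex III to oxygen at complex IV, and complex V uses the resulting proton gradient to make ATP. Most subunits are encoded in the nucleus, made on cytosolic ribosomes and imported, while a few core subunits of complexes I, III, IV and V are encoded by mitochondrial DNA. No symbol of a mitochondrially encoded subunit was in the table, so the balance between the 2 genomes was not analysed here. Accessory subunits surround the catalytic core and take part in assembly and stability.

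Promoters of the members were compared with those of other genes, since nuclear respiratory factor 1 (NRF1), the ETS factor GABP and YY1 are known regulators of these genes. Windows from 250 bases before to 50 bases after the start of each gene came from RefSeq on GRCh38.p14, and 69 members had one, 64 of them among the members tested below. The letters GCGCATGCG, the core of the NRF1 motif, occurred on either strand in 10 of 64 windows (15.6%), against 2.1% of 27305 RefSeq windows of the same length. The ETS letters CCGGAAGT occurred in 14.1% against 4.44%, and the YY1 letters AAGATGGCG in 12.5% against 1.85%. GGGCGG, a core of the Sp1 motif, was in 59.4% against 44.6%, and CCAAT in 31.2% against 35.7%. Because the NRF1 letters nearly read the same on both strands, 1 stretch can match on both strands, and a window was counted once.

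The windows below are those of the members that changed most after 50 µM PFOS and recovery among holders of the NRF1, ETS and YY1 letters, and of the member with the lowest change. ATP5I, a membrane subunit of complex V, has its window at chr4:674227-674526 on the minus strand. COX8A, an accessory subunit of complex IV, has it at chr11:63974370-63974669 on the plus strand, and NDUFS4, an accessory subunit of complex I, at chr5:53560389-53560688 on the plus strand. NDUFS1, the largest core subunit of complex I, has it at chr2:206159395-206159694 on the minus strand. Capitals mark the NRF1 letters in ATP5I, the ETS letters read on the opposite strand in COX8A and NDUFS1, and the YY1 letters in NDUFS4, and no marked stretches overlapped. The marked stretch begins at position -78 in ATP5I, -19 in COX8A, 22 in NDUFS4 and -158 in NDUFS1, counted from the start of the gene as position 1, with no position 0.
ATP5I: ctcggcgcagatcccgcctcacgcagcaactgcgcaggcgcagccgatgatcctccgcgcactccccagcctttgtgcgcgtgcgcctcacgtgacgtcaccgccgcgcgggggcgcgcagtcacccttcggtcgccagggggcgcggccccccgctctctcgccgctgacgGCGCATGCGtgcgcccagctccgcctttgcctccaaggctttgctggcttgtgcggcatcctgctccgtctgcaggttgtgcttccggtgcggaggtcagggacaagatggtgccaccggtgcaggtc
COX8A: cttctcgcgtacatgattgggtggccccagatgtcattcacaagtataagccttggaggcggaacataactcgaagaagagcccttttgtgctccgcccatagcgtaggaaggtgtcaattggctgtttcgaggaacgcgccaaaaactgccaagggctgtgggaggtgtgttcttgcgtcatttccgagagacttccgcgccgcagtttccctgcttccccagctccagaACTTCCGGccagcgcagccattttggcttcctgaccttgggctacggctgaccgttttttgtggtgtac
NDUFS4: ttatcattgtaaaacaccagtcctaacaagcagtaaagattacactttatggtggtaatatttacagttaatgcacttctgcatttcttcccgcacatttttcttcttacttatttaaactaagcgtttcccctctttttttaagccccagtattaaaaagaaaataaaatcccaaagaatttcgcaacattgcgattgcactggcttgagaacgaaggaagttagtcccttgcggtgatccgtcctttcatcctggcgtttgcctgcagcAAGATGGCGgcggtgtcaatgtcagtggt
NDUFS1: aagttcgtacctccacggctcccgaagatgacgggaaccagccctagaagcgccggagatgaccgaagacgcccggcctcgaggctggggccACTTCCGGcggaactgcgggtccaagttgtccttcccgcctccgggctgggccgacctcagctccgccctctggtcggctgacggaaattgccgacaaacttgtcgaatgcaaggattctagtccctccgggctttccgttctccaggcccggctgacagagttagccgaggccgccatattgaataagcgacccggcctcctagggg

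Total counts per library were 582233 to 4346627. After a filter on low counts 9847 genes were tested, among them 76 members: all 37 of complex I, all 4 of complex II, 8 of complex III, 12 of complex IV and 15 of complex V. The 3 libraries of 50 µM PFOS with recovery stood apart from the others and from each other. In libraries 1, 2 and 3 of that group the share of counts in cytosolic ribosomal protein genes was 2.92%, 7.50% and 4.98%, against 1.19% to 2.41% in the other 15 libraries. Of 12 microglial marker genes 0 passed the filter, and AIF1, CX3CR1, TYROBP, C1QA and C1QB had no count in any library, while 7 of 8 fibroblast and mesenchyme markers were counted in every library and COL3A1 in none. The summed level of these 8 markers, most of it from FN1 (2677.5 to 17792.7 CPM over all libraries), was 3807.1 to 12553.1 CPM (reads of the gene relative to the library size as scaled by TMM, edgeR's normalization for composition) in the 50 µM recovery libraries and 13022.1 to 17816.9 CPM in vehicle after recovery. Of the 7 tested markers 5 fell at 50 µM after recovery (median log2 change -0.92) and 5 at 50 µM and 24 h (median -1.26), where the sum was 14483.0 to 18485.8 CPM against 14422.3 to 16786.0 CPM in vehicle. The part of these shifts in the results below was not tested. In bulk RNA a change in the mix of cells and a change in RNA per cell cannot be told apart.

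The share of all counts taken by the 85 members was 0.679%, 0.708% and 0.727% in vehicle at 24 h, and 0.741%, 0.649% and 0.732% at 25 µM. It was 0.711%, 0.781% and 0.678% at 50 µM, so the 3 groups at 24 h overlapped. After recovery the share was 0.709%, 0.822% and 0.706% in vehicle, 0.870%, 0.785% and 0.872% after 25 µM, and 1.00%, 2.29% and 1.56% after 50 µM PFOS. All 3 libraries of 50 µM with recovery lay above the other 15, library 2 furthest and library 1 nearest. Their 95% Wilson intervals were 0.982% to 1.02%, 2.26% to 2.32% and 1.53% to 1.59%. These intervals cover counting error only, since reads amplified without molecular identifiers are not independent molecules.

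**Figure D1:**
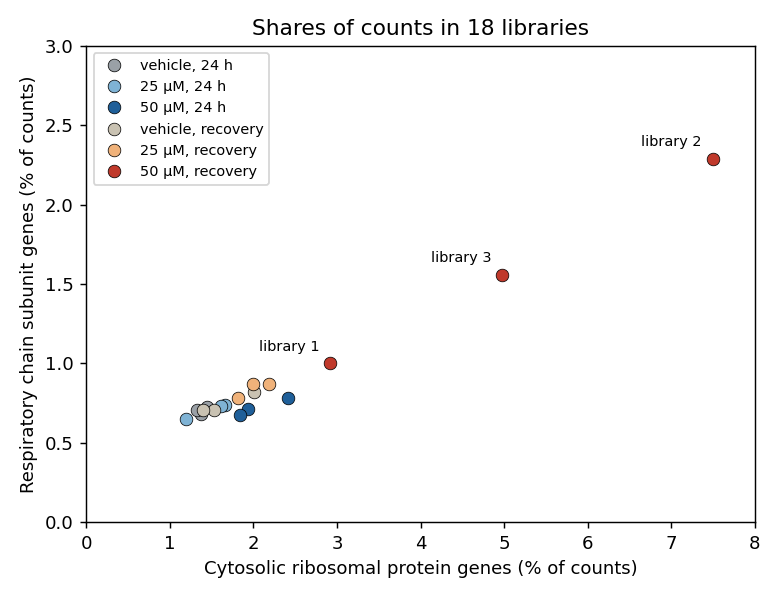
Share of counts in the 85 respiratory chain subunit genes (vertical axis, %) against the share in 77 cytosolic ribosomal protein genes (horizontal axis, %), 1 point per library and 1 colour per group. The 50 µM recovery libraries lie apart at 1.00%, 2.29% and 1.56% of counts in subunit genes, in the same order as their ribosomal protein shares of 2.92%, 7.50% and 4.98%.

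Directly after 24 h the members showed no called change. At 25 µM PFOS 0 of 76 members passed edgeR's quasi-likelihood test after Benjamini-Hochberg adjustment over all tested genes, at an adjusted p under 0.05, which is meant by called (1.24% of all genes were called), and 0 had an unadjusted p under 0.05. Of all 9847 genes, 867 had an unadjusted p under 0.05. DESeq2 also called 0 members. The median log2 change was -0.09, with -0.07 in complex I, -0.13 in II, -0.11 in III, -0.01 in IV and -0.19 in V, and -0.00 over all genes. Library 2 of this group was the low one, with 11 of 76 members above the vehicle mean, against 46 and 43 in libraries 1 and 3. The same library had the lowest ribosomal protein share of the series, 1.19%.

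At 50 µM PFOS for 24 h 0 of 76 members were called by edgeR, in a comparison where 18.8% of all genes were. At an unadjusted p under 0.05, 4 members were higher and 3 lower, against 3126 of 9847 genes in either direction. DESeq2 called 1 member. The medians were 0.05 in complex I, -0.21 in II, 0.03 in III, 0.10 in IV and -0.11 in V, against 0.01 over all genes. Without 50 µM library 2 the medians of complexes I, III and IV were -0.10, -0.14 and -0.10, so their sign rested on that library.

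The members nearest to the threshold at 50 µM and 24 h did not share a direction. COX4I1, the ubiquitous form of subunit 4 of complex IV, was at 195.2, 156.0 and 195.2 CPM in vehicle and at 272.2, 402.3 and 217.2 CPM at 50 µM. The groups did not overlap, with a log2 change of 0.70 ± 0.27 (SE, here and below; edgeR adjusted p = 0.0745). NDUFB10, an accessory subunit in the membrane arm of complex I, was at 29.4, 23.8 and 32.1 CPM against 51.7, 69.2 and 37.7 (0.86 ± 0.33, adjusted p = 0.0773). UQCRC1, a core protein of complex III, was at 421.0, 385.2 and 429.6 CPM against 501.9, 599.1 and 530.8 (0.40 ± 0.15, adjusted p = 0.0755). On the low side stood NDUFC1, a small accessory subunit of complex I, at 30.6, 30.6 and 29.2 CPM in vehicle and 18.6, 16.2 and 15.3 at 50 µM (-0.86 ± 0.40, adjusted p = 0.143). Its level at 25 µM was close to that at 50 µM, with at most 19.2 CPM in any library, so below every vehicle library. SDHD, a membrane anchor of complex II, was at 69.4, 73.5 and 79.8 CPM against 48.6, 62.7 and 48.4 (-0.50 ± 0.22, adjusted p = 0.122). For these 5 members every 50 µM library lay on 1 side of every vehicle library. Among all 76 tested members this held for 12 above and 12 below vehicle. The share of all genes was not counted for this comparison. NDUFS1 was lower as well, at 274.0, 303.4 and 293.0 CPM against 242.2, 231.4 and 223.3 (-0.32 ± 0.13, adjusted p = 0.0830).

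With the 6 libraries of this comparison alone, 12 members were called at 50 µM and 24 h, and 30.9% of all genes. Higher in that fit were NDUFA11, NDUFB8, NDUFB10, NDUFS8, COX4I1, COX7A2L and UQCRC1, by 0.38 to 0.83 on the log2 scale, and lower were NDUFC1, NDUFS1, SDHD, UQCR10 and UQCRFS1, by -0.33 to -0.87. Between 50 and 25 µM at 24 h 0 of 76 members were called (7.40% of all genes), with a median of 0.10. At an unadjusted p under 0.05, 3 members were higher and 1 lower, against 2113 of 9847 genes in either direction. DESeq2 called 0 there too. COX4I1 had the lowest adjusted p of that comparison, 0.0948.

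**Figure D2:**
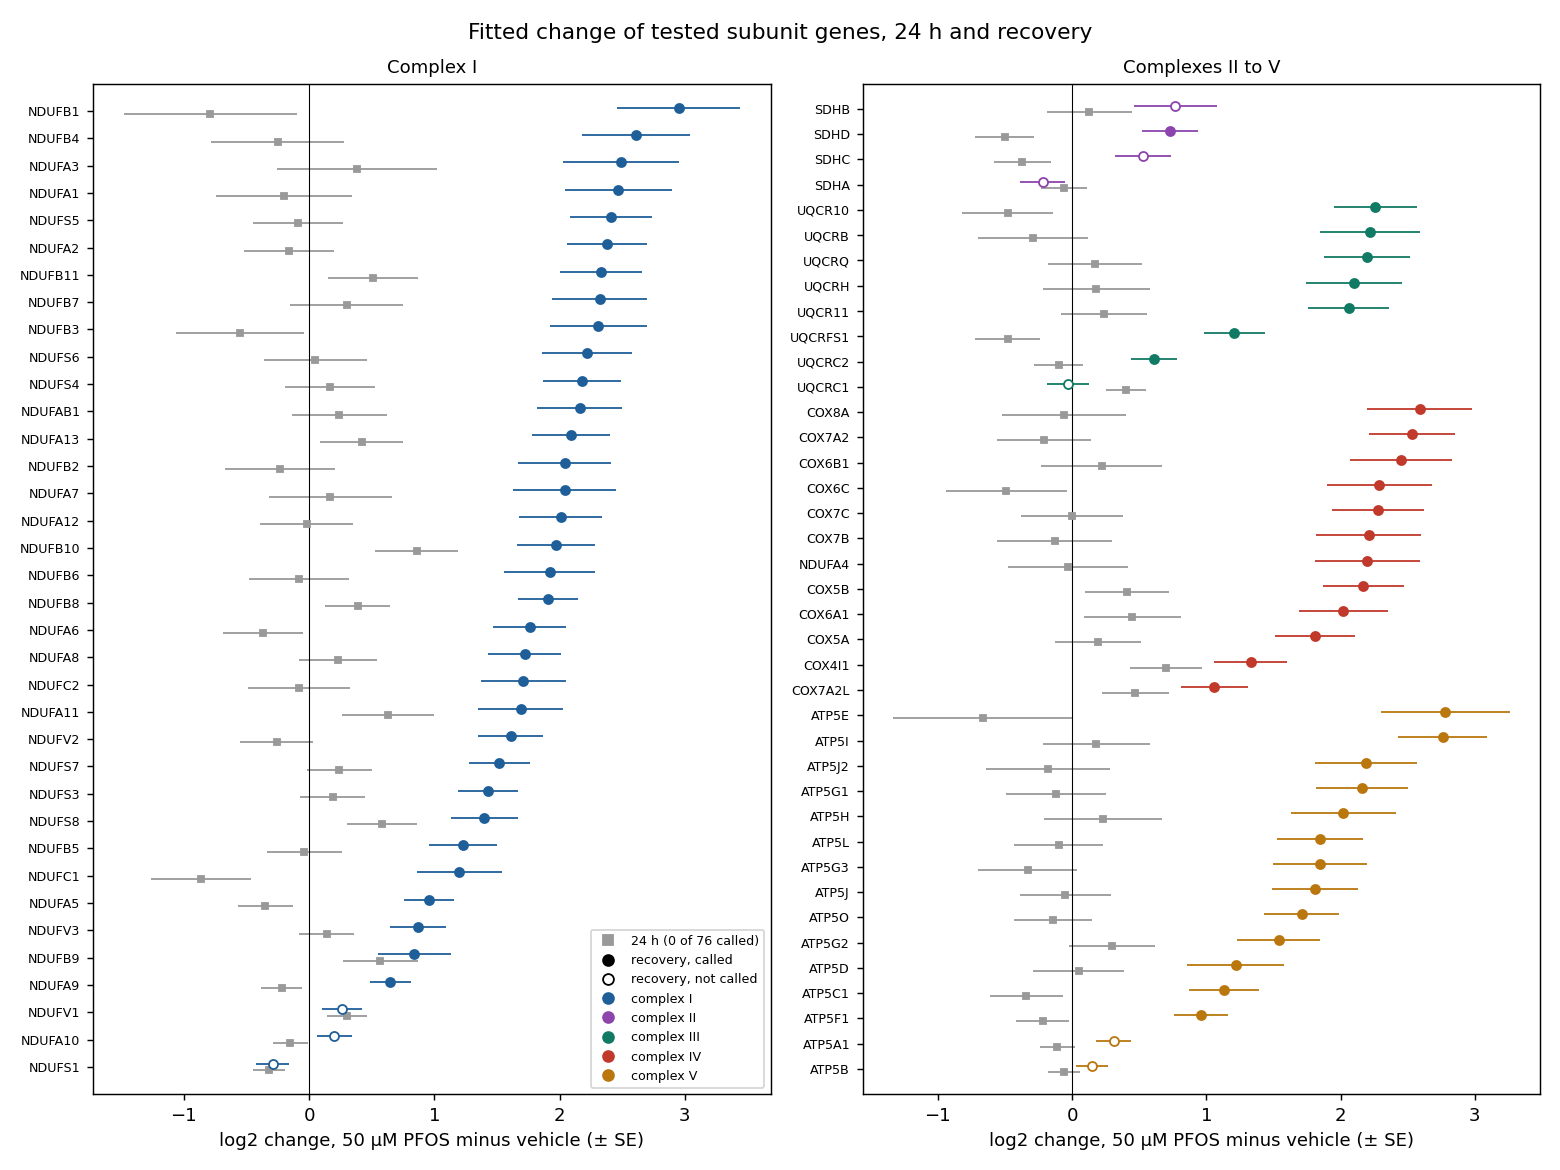
Fitted log2 change of 75 tested members, 50 µM PFOS minus vehicle, with bars of ± 1 SE: grey squares at 24 h, circles after recovery, filled where called and coloured by complex. The 24 h values lie on both sides of 0, while 66 of the recovery values are called and reach 2.95 for NDUFB1. The SE rests on the spread within all 6 groups together.

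After 50 µM PFOS and recovery most members were higher than in vehicle. Of 76 tested members 66 rose and 0 fell (17.7% of all genes were called higher and 28.4% in either direction), and the other 10 did not pass the test. The median log2 change was 1.88, against -0.05 over all genes. For 62 members every 50 µM library lay above every vehicle library (17.2% of all genes). Complex IV had 12 of 12 tested members higher (median 2.21), complex III 7 of 8 (2.08), complex I 33 of 37 (1.91), complex V 13 of 15 (1.81) and complex II 1 of 4 (0.63).

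The size of this rise differed between the 3 libraries. The median over members, relative to the vehicle mean, was 0.67, 2.48 and 1.81 in libraries 1, 2 and 3 for complex I, and 0.00, 1.17 and 0.33 for complex II. It was 0.64, 2.80 and 1.98 for complex III, 0.74, 3.04 and 2.06 for complex IV, and 0.67, 2.47 and 1.67 for complex V. The order of the libraries was thus the same in all 5 complexes and for the ribosomal protein share. In library 1, the least shifted, 63 of 76 members lay above the highest vehicle library, against 72 and 73 in libraries 2 and 3. The share of all genes above the highest vehicle library was not counted by library. Without library 2 the medians were 1.31 in complex I, 0.19 in II, 1.45 in III, 1.42 in IV and 1.21 in V. The median over all members was then 1.31 with 63 called higher and NDUFS1 called lower, and the all-gene count of calls dropped from 2800 to 1600. In a fit added after the data were seen, which left out libraries 2 and 3 together, 7 members were called with a median of 0.61 (2.40% of all genes). These 7 were ATP5I, COX5B, COX7A2, NDUFA2, NDUFB8, NDUFS5 and UQCR10, and library 1 was there assumed to vary like the other groups.

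**Figure D3:**
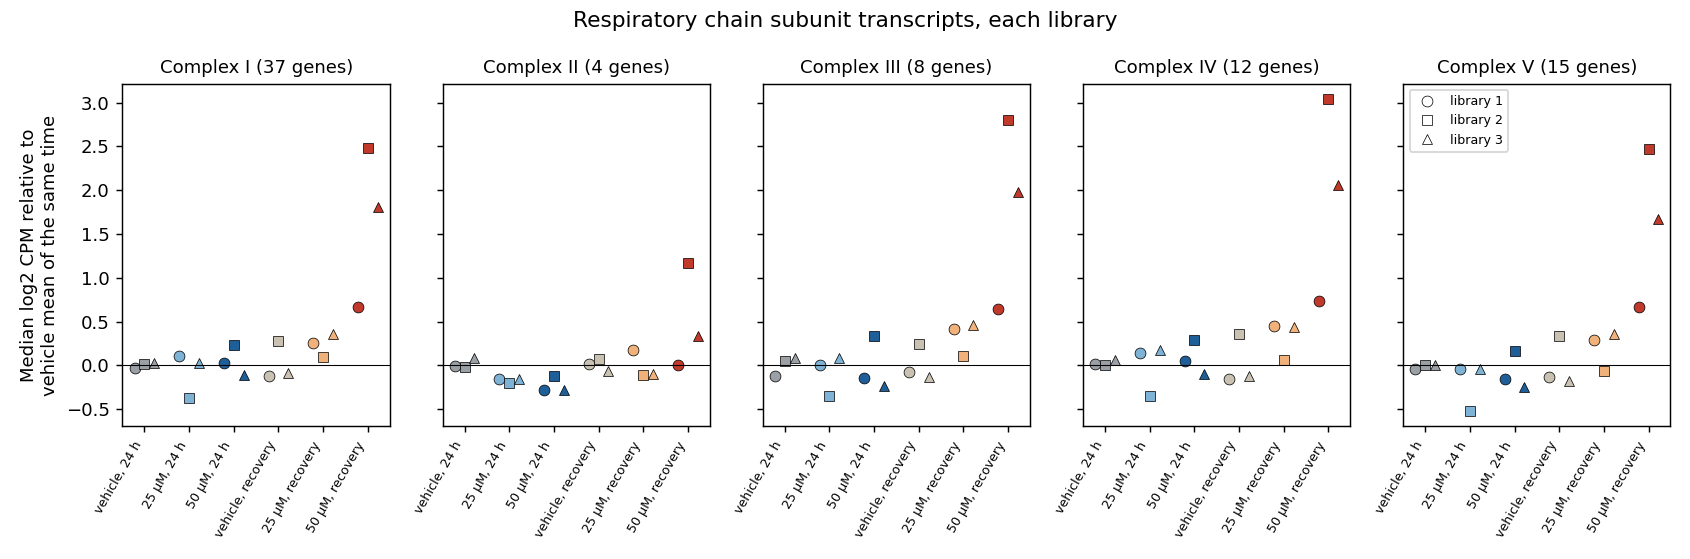
Median over the tested members of each complex of log2 CPM relative to the vehicle mean of the same time (vertical axis), in each library of the 6 groups (horizontal axis). Symbols mark libraries 1 to 3: the 50 µM recovery libraries reach 0.74, 3.04 and 2.06 in complex IV and 0.00, 1.17 and 0.33 in complex II.

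Complex I, which oxidises NADH, had its largest changes in accessory subunits. Of its 30 accessory subunits 29 rose, with a median of 2.03, and of its 7 core subunits, which carry the flavin and iron-sulfur clusters, 4 rose, with a median of 1.40. NDUFB1, an accessory subunit of the membrane arm, was at 6.13, 12.8 and 11.0 CPM in vehicle and at 17.4, 149.4 and 76.4 CPM after 50 µM PFOS. This was a log2 change of 2.95 ± 0.49 (adjusted p = 0.000173), a 7.74-fold change, with all 3 libraries above vehicle and library 1 far below the others. Its log2 values relative to the vehicle mean were 0.80, 3.82 and 2.86 in libraries 1, 2 and 3. The SE here and below rests on the spread within all 6 groups together, and may understate that of the 50 µM recovery libraries. NDUFB4 was at 15.3, 31.2 and 19.2 CPM against 36.0, 264.2 and 115.3 (2.61 ± 0.43). NDUFA3 was at 12.3, 15.7 and 5.95 CPM against 17.4, 119.3 and 55.6 (2.49 ± 0.46), and its lowest treated library was close to its highest vehicle library. NDUFA1 was at 19.9, 21.8 and 18.8 CPM against 29.1, 212.3 and 88.9 (2.47 ± 0.43).

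Further accessory subunits of complex I rose as well. NDUFS5 was at 51.3, 76.8 and 52.2 CPM in vehicle and 141.8, 552.1 and 272.3 CPM after 50 µM (2.41 ± 0.33, adjusted p = 3.52e-05). NDUFA2 was at 22.2, 40.4 and 22.0 CPM against 74.4, 248.7 and 130.6 (2.38 ± 0.32), and NDUFS6 at 26.0, 48.7 and 20.1 against 72.1, 230.5 and 152.8 (2.22 ± 0.36). In these genes library 1 also stood clear of vehicle. NDUFB2, NDUFB3, NDUFB7 and NDUFB11 rose by 2.04, 2.31, 2.32 and 2.33 on the log2 scale, and NDUFAB1, the mitochondrial acyl carrier protein, by 2.16.

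The core subunits of complex I did not move together. NDUFV2, NDUFS7, NDUFS3 and NDUFS8 rose by 1.61 ± 0.26, 1.52 ± 0.24, 1.43 ± 0.24 and 1.40 ± 0.27. NDUFS1 was at 311.8, 294.5 and 310.3 CPM in vehicle and 227.9, 290.6 and 229.2 CPM after 50 µM, so every treated library lay below every vehicle library (-0.29 ± 0.13, adjusted p = 0.0979). NDUFV1, which binds the flavin and NADH, was at 101.1, 109.8 and 99.3 CPM against 138.3, 92.9 and 143.1 (0.26 ± 0.16, adjusted p = 0.248), with library 2 the lowest of the 6. The accessory subunit that did not pass was NDUFA10, at 118.0, 120.8 and 123.1 CPM against 122.1, 158.5 and 133.4 (0.20 ± 0.14, adjusted p = 0.321). NDUFA9, an accessory subunit near the quinone site, passed with a smaller change, from 182.3, 210.4 and 218.8 to 239.5, 392.6 and 326.5 CPM (0.65 ± 0.16, adjusted p = 0.00423), a call lost in a fit of the compared groups alone (0.69, adjusted p = 0.0938).

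In complex I 2 calls rested on single libraries. NDUFC1 was at 32.2, 33.8 and 38.4 CPM in vehicle and 22.1, 135.7 and 79.2 CPM after 50 µM, so library 1 lay below vehicle and libraries 2 and 3 above it (1.20 ± 0.34, adjusted p = 0.0107). Its change was 0.49 without library 2 (adjusted p = 0.282). NDUFB9 rose by 0.84 ± 0.29 (adjusted p = 0.0359), and its adjusted p was 0.213 without 50 µM library 2, 0.0872 without 50 µM library 3, 0.111 without vehicle library 1 and 0.149 without vehicle library 3.

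Complex II, which is also the succinate dehydrogenase of the citric acid cycle, had the lowest median. SDHA, its flavoprotein, was at 327.8, 278.6 and 276.4 CPM in vehicle and 309.2, 179.5 and 272.3 CPM after 50 µM (-0.22 ± 0.17, adjusted p = 0.357), with library 2 the lowest. SDHB, the iron-sulfur subunit, was at 118.0, 141.2 and 91.5 CPM against 90.7, 316.1 and 190.3 (0.77 ± 0.31, adjusted p = 0.0642). In SDHB library 1 was below all vehicle libraries and library 2 far above them. SDHC, a membrane anchor, was at 75.8, 93.6 and 92.5 CPM against 82.5, 181.3 and 112.5 (0.53 ± 0.21, adjusted p = 0.0591). SDHD rose from 72.0, 73.6 and 70.5 to 87.2, 176.7 and 88.9 CPM (0.73 ± 0.21, adjusted p = 0.0135), and without library 2 its change was 0.29 (adjusted p = 0.278). Without that library the median of complex II was 0.19, and 0 of its 4 members were called (15.9% of all genes). Without library 1, 3 of the 4 were called (40.3% of all genes).

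In complex III, the cytochrome bc1 complex, 5 accessory subunits rose by similar amounts, with a median of 2.20. UQCR10 was at 59.7, 81.8 and 52.6 CPM in vehicle and 143.0, 492.9 and 297.3 CPM after 50 µM (2.26 ± 0.31, adjusted p = 3.20e-05). UQCRB was at 53.6, 63.9 and 64.1 CPM against 91.8, 498.3 and 254.2 (2.22 ± 0.37), and UQCRQ at 72.8, 111.4 and 66.8 against 177.9, 584.0 and 402.9 (2.20 ± 0.32). The groups did not overlap in these genes. UQCRH and UQCR11 rose by 2.10 ± 0.36 and 2.06 ± 0.30. UQCRFS1, the Rieske iron-sulfur protein, rose from 52.1, 59.0 and 53.6 to 76.7, 174.9 and 127.8 CPM (1.21 ± 0.23). Of the core proteins UQCRC2 rose from 137.9, 147.8 and 139.6 to 152.3, 287.9 and 208.4 CPM (0.61 ± 0.17, adjusted p = 0.0121), a call lost without library 2 (0.34, adjusted p = 0.136). UQCRC1 was at 426.7, 483.2 and 333.2 CPM against 429.0, 314.3 and 477.9 (-0.03 ± 0.16, adjusted p = 0.905), where the groups overlapped and library 2 was the lowest of the 6.

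All 12 tested members of complex IV, cytochrome c oxidase, rose, and none of their 50 µM libraries overlapped with vehicle. These are the subunits around the mitochondrially encoded catalytic core. COX8A was at 25.3, 42.5 and 26.1 CPM in vehicle and 57.0, 363.5 and 155.6 CPM after 50 µM (2.59 ± 0.39, adjusted p = 7.74e-05). COX7A2 was at 31.4, 40.1 and 35.7 CPM against 77.9, 324.3 and 220.9 (2.53 ± 0.32), and COX6B1 at 23.7, 35.4 and 21.1 against 54.6, 262.4 and 127.8 (2.45 ± 0.38). Library 2 was again the highest in each. COX6C was at 36.0, 39.0 and 37.5 CPM against 47.7, 334.3 and 163.9 (2.29 ± 0.39). COX7C was at 68.9, 107.4 and 78.7 CPM against 166.2, 669.6 and 415.4 (2.28 ± 0.34). NDUFA4 was at 19.1, 39.0 and 32.0 CPM against 46.5, 258.7 and 120.9 (2.20 ± 0.39). COX7B, COX5B, COX6A1 and COX5A rose by 2.21, 2.17, 2.02 and 1.81.

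The smallest changes of complex IV were in COX4I1 and COX7A2L. COX4I1 was at 258.1, 292.7 and 157.0 CPM in vehicle and 367.4, 864.6 and 546.0 CPM after 50 µM (1.33 ± 0.27, adjusted p = 0.000881). COX7A2L, a relative of COX7A2 known for its place in the supercomplex of complexes III and IV, was at 55.9, 87.5 and 91.5 CPM against 103.5, 250.5 and 136.1 (1.06 ± 0.25). In a fit of the compared groups alone COX7A2L no longer passed (1.10, adjusted p = 0.0750). That fit lost 13 of the 66 calls: ATP5C1, ATP5D, ATP5F1, COX7A2L, NDUFA5, NDUFA7, NDUFA9, NDUFB5, NDUFB9, NDUFC1, NDUFV3, SDHD and UQCRC2.

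The tissue-restricted forms of complex IV subunits were not expressed at a testable level. COX4I2, COX6A2, COX7B2 and COX8C had no count in any of the 18 libraries, where a count of 0 allows up to 3 counts, or 0.690 to 5.15 CPM by library. COX7A1, the heart and muscle form of subunit 7A, had 1 count in all, COX6B2 18 and NDUFA4L2 20. Of complex III UQCRHL, a near-identical copy of UQCRH, had 36 counts, and of complex V ATP5L2 had 1. These 9 members did not pass the filter and were not tested. How reads were divided between UQCRH and UQCRHL, or between other members and their processed pseudogenes, is uncertain.

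In complex V the genes of the catalytic head had the lowest changes. ATP5A1 and ATP5B encode the alpha and beta subunits, which bind the nucleotides. ATP5B was at 1425.5, 1522.0 and 1381.3 CPM in vehicle and 1396.2, 1875.8 and 1529.6 CPM after 50 µM (0.15 ± 0.12, adjusted p = 0.380), and the groups overlapped. ATP5A1 was at 468.0, 535.9 and 517.2 CPM against 540.6, 777.1 and 571.0, every treated library above vehicle (0.31 ± 0.13, adjusted p = 0.0800). No difference in response between the head and the other subunits was tested.

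The stalks, the c ring and the membrane subunits of complex V rose. ATP5E, the epsilon subunit of the central stalk, was at 6.89, 9.17 and 5.03 CPM in vehicle and 16.3, 84.7 and 47.2 CPM after 50 µM (2.78 ± 0.48, adjusted p = 0.000222). ATP5I was at 21.4, 32.5 and 20.1 CPM against 68.6, 268.7 and 175.0 (2.76 ± 0.33, adjusted p = 1.94e-05), the lowest adjusted p of the 76 members. In edgeR's fit of the compared groups alone, with their own spread, its adjusted p was 0.0243, and none of the 76 was lower. ATP5J2, another membrane subunit, was at 20.7, 36.9 and 10.5 CPM against 41.9, 164.9 and 118.1 (2.19 ± 0.38). All 3 libraries lay above vehicle in these genes. The 3 genes of the c ring, whose mature proteins are identical, rose by 2.16 ± 0.34 (ATP5G1), 1.85 ± 0.35 (ATP5G3) and 1.54 ± 0.31 (ATP5G2). ATP5G3 was at 70.5, 106.9 and 78.7 CPM against 105.8, 539.3 and 286.2, so library 1 lay within the vehicle range. The 4 peripheral stalk genes rose by 0.96 for ATP5F1, 1.71 for ATP5O, 1.81 for ATP5J and 2.02 for ATP5H. ATP5D, the delta subunit, was at 26.8, 16.5 and 5.95 CPM in vehicle against 39.5, 28.2 and 43.1 (1.22 ± 0.36, adjusted p = 0.0138), and its highest value was in library 3. The call for ATP5D was lost without vehicle library 3 (0.82, adjusted p = 0.0534) and without 50 µM library 3 (1.10, adjusted p = 0.0541).

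**Figure D4:**
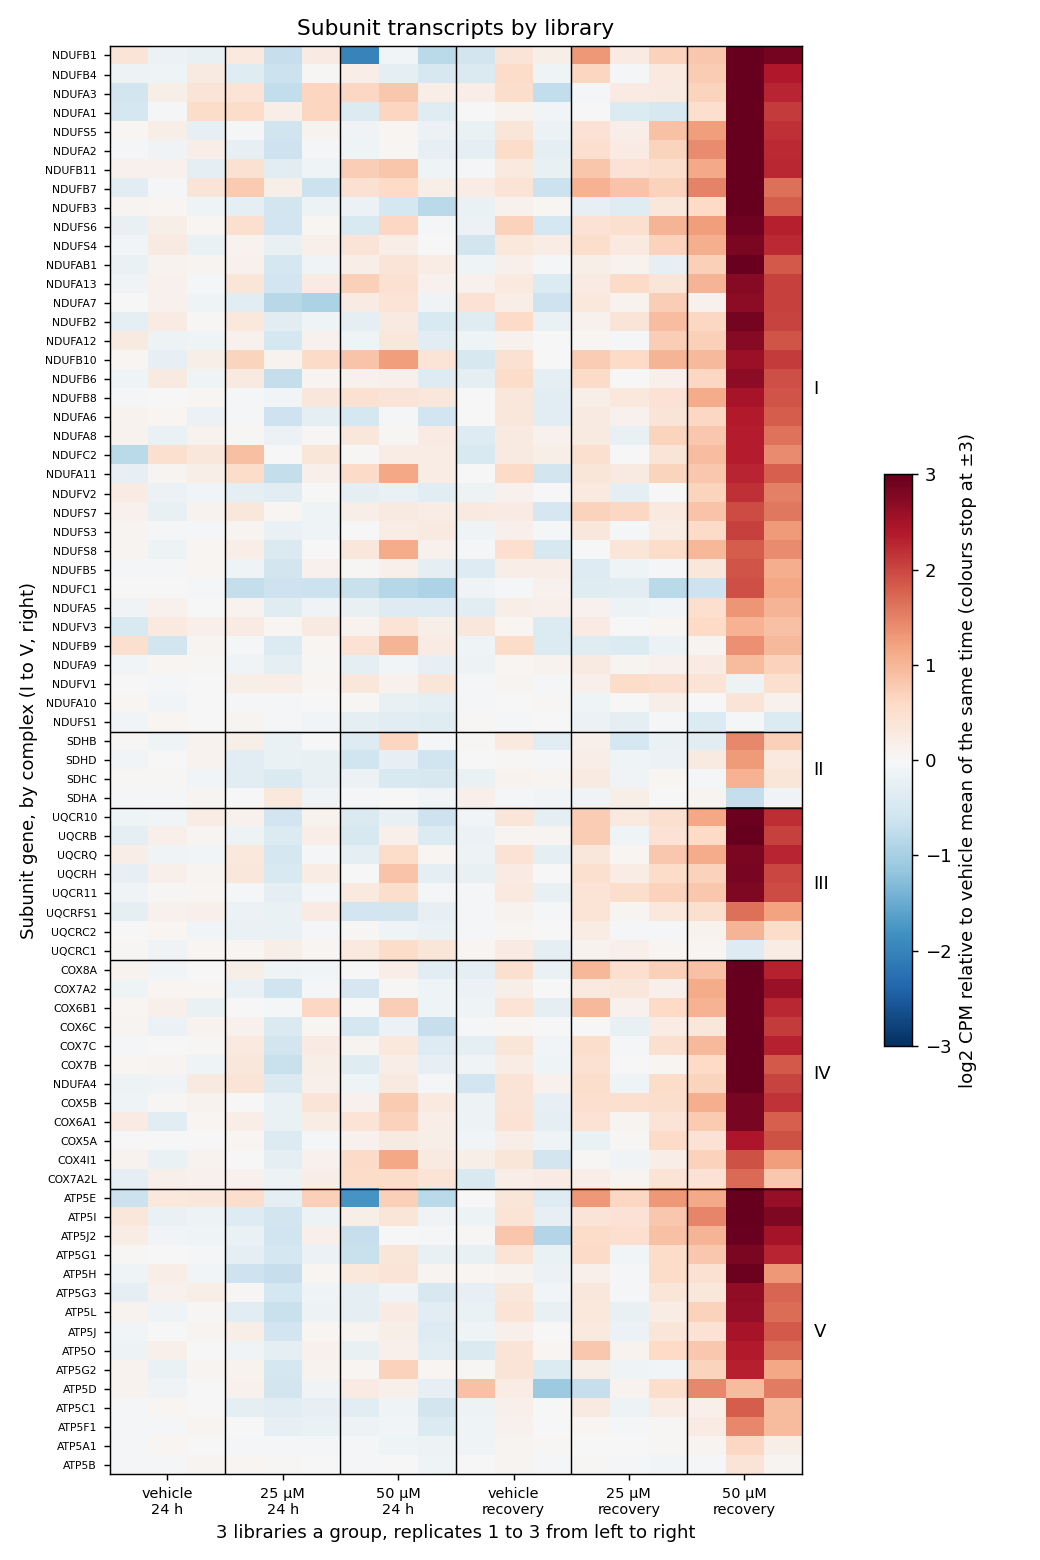
Log2 CPM of 75 tested members (rows, by complex and by size of change) relative to the vehicle mean of the same time, in 18 libraries (columns, 3 per group, replicates 1 to 3 from left to right), red above and blue below. Libraries 2 and 3 of 50 µM with recovery are red for most members, with medians over all 76 tested members of 2.60 and 1.80, and library 1 is paler, with a median of 0.67.

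Summed over members, the level of complex IV was 795.0 ± 157.1 CPM (SD, n = 3) in vehicle after recovery and 3007.8 ± 1817.5 CPM after 50 µM, 3.78 times as high. The ratio was 2.56 for complex I, 2.35 for complex III, 1.86 for complex V and 1.22 for complex II. In complex V the sum was 2999.2 ± 293.7 CPM in vehicle against 5577.6 ± 2283.1, and it holds the counts of ATP5B and ATP5A1. The SD of the 50 µM group followed the spread between its libraries, 9809.5, 25623.2 and 16410.0 CPM over all members.

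The change after 50 µM and recovery was larger in members with a short gene span. The span is the length of the gene from start to end, and its rank correlation with the log2 change was -0.52 over 76 members and -0.31 over 9785 genes. Both are descriptions across genes that share the same libraries. Members with a span of 1841 to 7810 bases had a median of 2.19, against 0.46 for the 1226 genes in that range. Those of 7832 to 13310 bases had 2.02 against 0.12, and those of 13750 to 132901 bases 1.13 against -0.10. With the trend on span removed, 65 members were called higher with a median of 1.52. In that fit 26.4% of all genes were called in either direction, with a median of -0.02.

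The promoter letters of members with and without a call were set side by side. The NRF1 letters were in 10 of 57 windows of members that rose (17.5%) and in 0 of 7 windows of members that did not pass. The ETS letters were in 14% and 14.3%, the YY1 letters in 10.5% and 28.6%, and CCAAT in 35.1% and 0%. These shares describe 64 windows, and no difference between them was tested. ATP5I, whose window is printed above with the NRF1 letters, rose by 2.76, and NDUFS1 and COX8A, at -0.29 and 2.59, both hold the ETS letters.

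After 25 µM PFOS and recovery 0 of 76 members were called by edgeR (0% of all genes) and 0 by DESeq2. At an unadjusted p under 0.05, 2 members were higher and 0 lower, against 693 of 9847 genes in either direction. The median was 0.16, with 0.16 in complex I, -0.01 in II, 0.35 in III, 0.20 in IV and 0.13 in V, against -0.00 over all genes. Of 76 members 60 had a log2 change above 0. COX8A was at 62.0, 43.8 and 50.8 CPM, each above its vehicle libraries (0.64 on the log2 scale). ATP5E had the largest value, 0.97, at 18.4, 11.2 and 18.4 CPM. Without vehicle library 2 the median of complex I was 0.48, so this value depended on that library, in which 72 of 76 members lay above the vehicle mean.

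Against 25 µM PFOS with recovery, 67 members were higher at 50 µM with recovery and 0 lower (14.7% of all genes were called higher, 22.1% in either direction), with a median of 1.66. By complex these were 33 of 37 in I, 2 of 4 in II, 7 of 8 in III, 12 of 12 in IV and 13 of 15 in V. NDUFA1 differed most, at most 20.1 CPM in any library after 25 µM and 29.1, 212.3 and 88.9 after 50 µM (2.85 on the log2 scale). In a fit of these 6 libraries alone, edgeR called 0 members and 0 genes, with a median of 1.62. There 66 members were higher at an unadjusted p under 0.05, and no adjusted p was below 0.0790. The share of all genes at that unadjusted p was not counted. This comparison shares its 50 µM libraries with the comparison against vehicle.

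The effect of 50 µM PFOS differed between the times. Tested as an interaction, 57 of 76 members had a larger effect after recovery than at 24 h and 0 a smaller one (11.6% of all genes were called higher, 19.1% in either direction), with a median difference of 1.82. NDUFB1, at -0.79 ± 0.69 at 24 h, differed by 3.74 ± 0.83 (adjusted p = 0.00520), and ATP5E, at -0.66 ± 0.67, by 3.44 ± 0.81 (adjusted p = 0.00715). Both rest on few counts at 50 µM and 24 h. In libraries 1, 2 and 3 these were 2, 10 and 12 for NDUFB1 and 1, 10 and 6 for ATP5E. Relative to vehicle, library 1 was the lowest for both, at -2.00 and -1.77 on the log2 scale. UQCR10 and COX7A2 had the lowest adjusted p in their complexes, with differences of 2.74 ± 0.45 and 2.73 ± 0.47. COX4I1 and NDUFB10 did not pass (0.63, adjusted p = 0.252, and 1.11, adjusted p = 0.0913), nor did UQCRC1 (-0.43, adjusted p = 0.174). Without libraries 2 and 3 of 50 µM with recovery the median difference over members was 0.60. For the 25 µM effect 0 of 76 members differed between the times by edgeR or DESeq2 (0.0203% of all genes). At an unadjusted p under 0.05 it was 0 members as well, against 458 of 9847 genes. Between vehicle after recovery and vehicle at 24 h both tools likewise called 0 members (0.975% of all genes), with a median of 0.21. At the unadjusted p the count was also 0, against 1297 of 9847 genes.

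Some of the genes that build the complexes rose after 50 µM and recovery, where 17.7% of all tested genes were called higher and 28.4% in either direction. Of 15 tested complex I assembly factors 8 rose (median 0.89), among them NDUFAF2 at 1.91 ± 0.36 and TMEM126B at 1.08 ± 0.25. For complex II 2 of 3 assembly factors rose (median 1.05) and for complex III 3 of 6 (median 0.72), with UQCC2 at 1.98 ± 0.28. For complex IV 12 of 20 rose and 1 fell (median 1.27). Here PET100 had 3.01 ± 0.48 and the copper chaperone COX17 2.33 ± 0.42, while COX10, a heme farnesyltransferase, fell by 0.63 ± 0.23. For complex V 1 of 4 rose, a share near that of all genes, namely TMEM70 at 0.96 ± 0.24. Of 8 tested subunits and carriers under other names 7 rose (median 1.03): the ATP synthase subunits USMG5 and C14orf2 at 2.61 and 2.20, HIGD2A at 1.70, ATP5S at 1.15, cytochrome c (CYCS) at 0.91, ATPIF1, an inhibitor of ATP synthase, at 0.58 and cytochrome c1 (CYC1) at 0.55.

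Neighbouring mitochondrial pathways lay on both sides of those shares of all genes, and no difference between lists was tested. In coenzyme Q synthesis 4 of 13 genes rose (median 0.48), and in the citric acid cycle and pyruvate dehydrogenase list 7 of 18 rose and 1 fell (median 0.21). Citrate synthase (CS) fell by 0.53 ± 0.17, and SUCLG1 and FH each rose by 0.75. Of 11 genes of mitochondrial DNA maintenance and transcription 1 rose, the single-strand binding protein SSBP1 at 1.74 ± 0.29, and TFAM, which packages mitochondrial DNA, was at 0.49 ± 0.20 (adjusted p = 0.0781). Of 5 tested regulators of respiratory genes 0 rose and PPRC1, a coactivator of the PGC-1 family, fell by 1.06 ± 0.31. NRF1 was at 0.02 ± 0.26 and GABPA at -0.42 ± 0.19, neither past the test. Cytosolic ribosomal protein genes had 71 of 72 higher (median 2.27).

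At 24 h of 50 µM, where 18.8% of all tested genes were called, 1 of 13 coenzyme Q genes and 8 of 72 ribosomal protein genes were called higher and 1 citric acid cycle gene lower, with 0 called among assembly factors, subunits under other names, mitochondrial DNA genes and regulators. Without libraries 2 and 3 of 50 µM with recovery, 0 genes were called in each of these mitochondrial and regulator lists, and 48 of 73 ribosomal protein genes were called higher. Without library 2 alone, 15.9% of all genes were called in either direction. In that fit 5 of 15 complex I and 8 of 20 complex IV assembly factors rose. So did 1 of 18 citric acid cycle genes, 2 of 13 in coenzyme Q synthesis and 0 among the assembly factors of complexes II and V. Without library 1, 40.3% of all genes were called in either direction. In that fit 6 of 11 genes of mitochondrial DNA maintenance rose and 1 fell. Of 18 citric acid cycle genes 7 rose and 4 fell, with a median of 0.32.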

How the data were processed

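For 18 RNA-seq libraries the authors deposited raw counts by gene symbol in 1 table, not normalized per the file headers. Per the labels' protocols, poly(A) RNA was made into Smart-seq2 libraries, which carry no molecular identifiers and do not mark strand, and sequenced as paired ends. Trimmomatic, STAR, DESeq2 and MACS2 and the builds GRCh38 and hg38 are named per the submitters' processing notes. The counting tool, annotation and use of strand were not given in the sources used here. Overlapping and antisense genes therefore cannot be told apart.

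Counts were fitted with edgeR 4.0.16 in R 4.3.3: filterByExpr by group (minimum count 10), TMM, and a quasi-likelihood model with 1 mean for each of 6 groups. Two-sided p-values were adjusted over 9847 genes by the Benjamini-Hochberg method, and "called" means under 0.05. The SE is the log2 change divided by the root of the F statistic. It thus rests on the spread within all 6 groups together, not on that of the compared libraries alone. Log2 values per library used a prior count of 2. The tests were also run on simulated data, but the settings and outcome of that check are not reported here. It is therefore not used to judge the tests for groups with unlike libraries, such as the higher dose with recovery. Alternatives were DESeq2 1.42.0 as size factors and as a test, limma 3.58.1 (voom with quality weights), other filters, a replicate block, removal of the gene-span trend, the compared groups alone and leaving out each library. The members, lists and tests were chosen with earlier results of these data known.

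Library values are given for called members with the largest changes (at most 25), the 2 members of each complex with the highest mean CPM, those with the largest and smallest 50 µM changes in each complex, and isoform pairs, some by the change alone. Other members are named to complete a role or a call. Gene spans and promoters came from RefSeq (GRCh38.p14), in which 95.3% of symbols were found. The values of 1 tested member are not reported here, and counts and medians include it.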

Additional observations from a re-analysis of the deposited data

Results flagged for a closer look

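The effect of 50 µM PFOS, taken against vehicle of the same time, was larger after recovery than at 24 h for 57 members. This was by edgeR's interaction test with Benjamini-Hochberg adjustment, where 11.6% of all genes were called higher and 19.1% in either direction. Among the 43 tested members chosen for closer description, 32 passed. In complex I the difference on the log2 scale was 3.74 for NDUFB1, 2.86 for NDUFB4, 2.85 for NDUFB3, 2.67 for NDUFA1, 2.54 for NDUFA2 and 2.49 for NDUFS5. It was 2.28 for NDUFB2, 2.17 for NDUFS6, 2.06 for NDUFC1, 2.02 for NDUFB7, 1.82 for NDUFB11 and 0.86 for NDUFA9. In complex II it was 1.22 for SDHD. In complex III it was 2.74 for UQCR10, 2.50 for UQCRB, 2.03 for UQCRQ, 1.91 for UQCRH, 1.69 for UQCRFS1 and 0.72 for UQCRC2. In complex IV it was 2.78 for COX6C, 2.73 for COX7A2, 2.65 for COX8A, 2.34 for COX7B, 2.28 for COX7C, 2.23 for COX6B1, 2.23 for NDUFA4 and 1.57 for COX6A1. In complex V it was 3.44 for ATP5E, 2.57 for ATP5I, 2.37 for ATP5J2, 2.28 for ATP5G1 and 2.19 for ATP5G3. The largest values, of NDUFB1 and ATP5E, rest on few counts at 50 µM and 24 h, with 2 and 1 in library 1. Without libraries 2 and 3 of 50 µM with recovery the median difference over members was 0.60, against 1.82 with them. The size of the difference thus rests on those libraries.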

How the results depend on the processing

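The count of members called after 50 µM PFOS and recovery is given with the share of all genes called in either direction. It was 66 with DESeq2's size factors (28.3%), 67 without a filter (17.1%) and 66 at a mean of at least 10 CPM (32.2%). It was 68 with DESeq2 (28.8%), 69 with voom (68 higher, 32.8% of all genes) and 65 with the span trend removed (26.4%). With the compared libraries alone it was 53 (9.53%), and with any 1 library left out 64 to 70 (15.9% to 40.3%). In the added fit without 50 µM recovery libraries 2 and 3 the median change over members was 0.61 against vehicle. It was 0.42 against 25 µM and 0.60 in the interaction. The count against 25 µM was 0 with the compared libraries alone (0% of all genes). At 24 h the count for 50 µM against vehicle was 4 without a filter, 1 with DESeq2 and 10 with voom. The main fit called 0 members and 18.8% of all genes there. For the comparisons at 24 h, the shares of all genes in these alternative fits are not given here. The count for 50 µM against vehicle was 12 with the compared libraries alone (30.9% of all genes) and 0 to 1 with 1 library left out. COX4I1 was called without 50 µM library 3. For 50 against 25 µM at 24 h the count was 2 without a filter and 5 with voom. The main fit called 0 members and 7.40% of all genes there. With the compared libraries alone the count was 6 (20.8% of all genes). For 25 µM against vehicle at 24 h the count was 1 (NDUFC1) with the compared libraries alone (4.22% of all genes).

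With 1 library left out, medians of complexes I to V ranged from -0.20 to 0.05, -0.17 to -0.07, -0.20 to 0.03, -0.12 to 0.17 and -0.26 to -0.04 for 25 µM at 24 h. For 50 µM at 24 h they ranged from -0.10 to 0.13, -0.25 to -0.16, -0.14 to 0.09, -0.10 to 0.21 and -0.26 to -0.02. For 25 µM with recovery they ranged from 0.09 to 0.48, -0.09 to 0.02, 0.24 to 0.53, 0.15 to 0.41 and 0.01 to 0.32, and for 50 µM with recovery from 1.31 to 2.19, 0.19 to 0.83, 1.45 to 2.45, 1.42 to 2.62 and 1.21 to 2.19. The mean summed level of complex I in vehicle at 24 h was 2019.5 CPM with unscaled library totals. After 50 µM and recovery the sign turned for UQCRC1 (0.17 with voom, 0.02 with the compared libraries alone, 0.04 without libraries 2 and 3, and 0.01, 0.12 and 0.13 without vehicle library 1, vehicle library 2 and 50 µM library 2, with -0.17 to 0.13 over all fits that left out 1 library) and for ATP5B (-0.15 with the span trend removed). Without libraries 2 and 3 it also turned for ATP5B (-0.05), NDUFC1 (-0.67), SDHA (0.07) and SDHB (-0.38). The cause of these changes was not tested. Of 645 alternatives for named members 586 kept direction and call, 41 lost the call, 7 gained it and 11 changed sign.

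With the replicate number as a block, 66 members were called after 50 µM and recovery (27.3% of all genes). In that fit 67 were called against 25 µM and 53 in the interaction, and the other counts were 0. The shares of all genes for the 67 and the 53 are not given here. In the main fit they were 22.1% and 19.1%. Between same-numbered libraries of different groups, 45 correlations ran from -0.34 to 0.39. In 0 of 15 pairs of groups were all over 0.1, so no consistent shared signal was seen. With 3 libraries a group, these correlations cannot show whether same-numbered libraries were set up together. Library totals as low as 582233 counts limit members with few counts, such as NDUFB1 and ATP5E.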
